A study of Mus musculus with 18 samples.

Results

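The difference between Nrf2 knockout (KO) and wild-type (WT) mice that is common to 3 brain regions was examined on all 18 arrays of the study, 9 from KO and 9 from WT mice. Arrays were chosen by the genotype and region named in their titles: 3 KO and 3 WT arrays each of cortex, hippocampus and brainstem. All mice were male, of strain 129SV and kept without added stress. The labels call the mice Nrf2 knockout or wild type and name no promoter or tissue to which the loss is limited. The allele and the part of the gene that was removed are not given in the sources used here. Each array measured Cy3-labelled RNA of 1 region on a 1-colour Agilent mouse array. Mice are numbered 1 to 3 within each genotype and region and their RNAs are called independent, with no word on litters or batches. What a p-value takes as error is therefore the variation among these samples.

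NRF2, encoded by Nfe2l2, is a basic leucine zipper transcription factor. In unstressed cells the adaptor KEAP1 presents it to a CUL3 ubiquitin ligase for degradation, and electrophiles or oxidants that modify KEAP1 let it accumulate. With a small MAF partner it then binds antioxidant response elements and activates genes of glutathione synthesis and conjugation, quinone reduction, NADPH supply and iron handling. In brain its activity is known to be strong in astrocytes and low in mature neurons.

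Levels are log2 intensities minus the 75th percentile of the array, and differences are KO minus WT on this log2 scale. On each array 28326 to 32582 spots exceeded the background clearly and 0 were saturated. Of the 18 defining markers of brain cell types, vessels, blood, meninges and choroid plexus, 18 were above background on every array. The vesicular glutamate transporter Slc17a7 lay between 1.76 and 2.29 in cortex and between 1.94 and 2.20 in hippocampus, but between -2.12 and -1.35 in brainstem, whereas Slc17a6 lay between 2.98 and 3.24 in brainstem and did not exceed 0.18 elsewhere. Every KO and WT array of the same region and number shared 1 of the 5 slides.

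Across the 3 regions, 11 of 22671 genes differed between KO and WT (limma with region as a block, adjusted p under 0.05), which is 0.0485% of the genes tested. Of these, 9 fell (0.0397%) and 2 rose (0.00882%). The lower genes were Nfe2l2, the mu-class glutathione transferases Gstm1 and Gstm3, Osgin1, Aox1, Slc11a1, Itga6 and the transcripts AK017540 and AK045391, which have no symbol in the tables used. The higher genes were Rbm45 and Fgfbp3. For all 11 genes the KO and WT arrays did not overlap within any of the 3 regions and the direction was the same in each, which held for 42 genes or 0.185% of those tested. At an unadjusted p under 0.05 there were 1898 genes (8.37%), 1131 higher and 767 lower. When the 3 regions were averaged for each genotype and mouse number, 3 KO against 3 WT, 3 genes were called, Rbm45, Nfe2l2 and Gstm1.

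**Figure D1:**
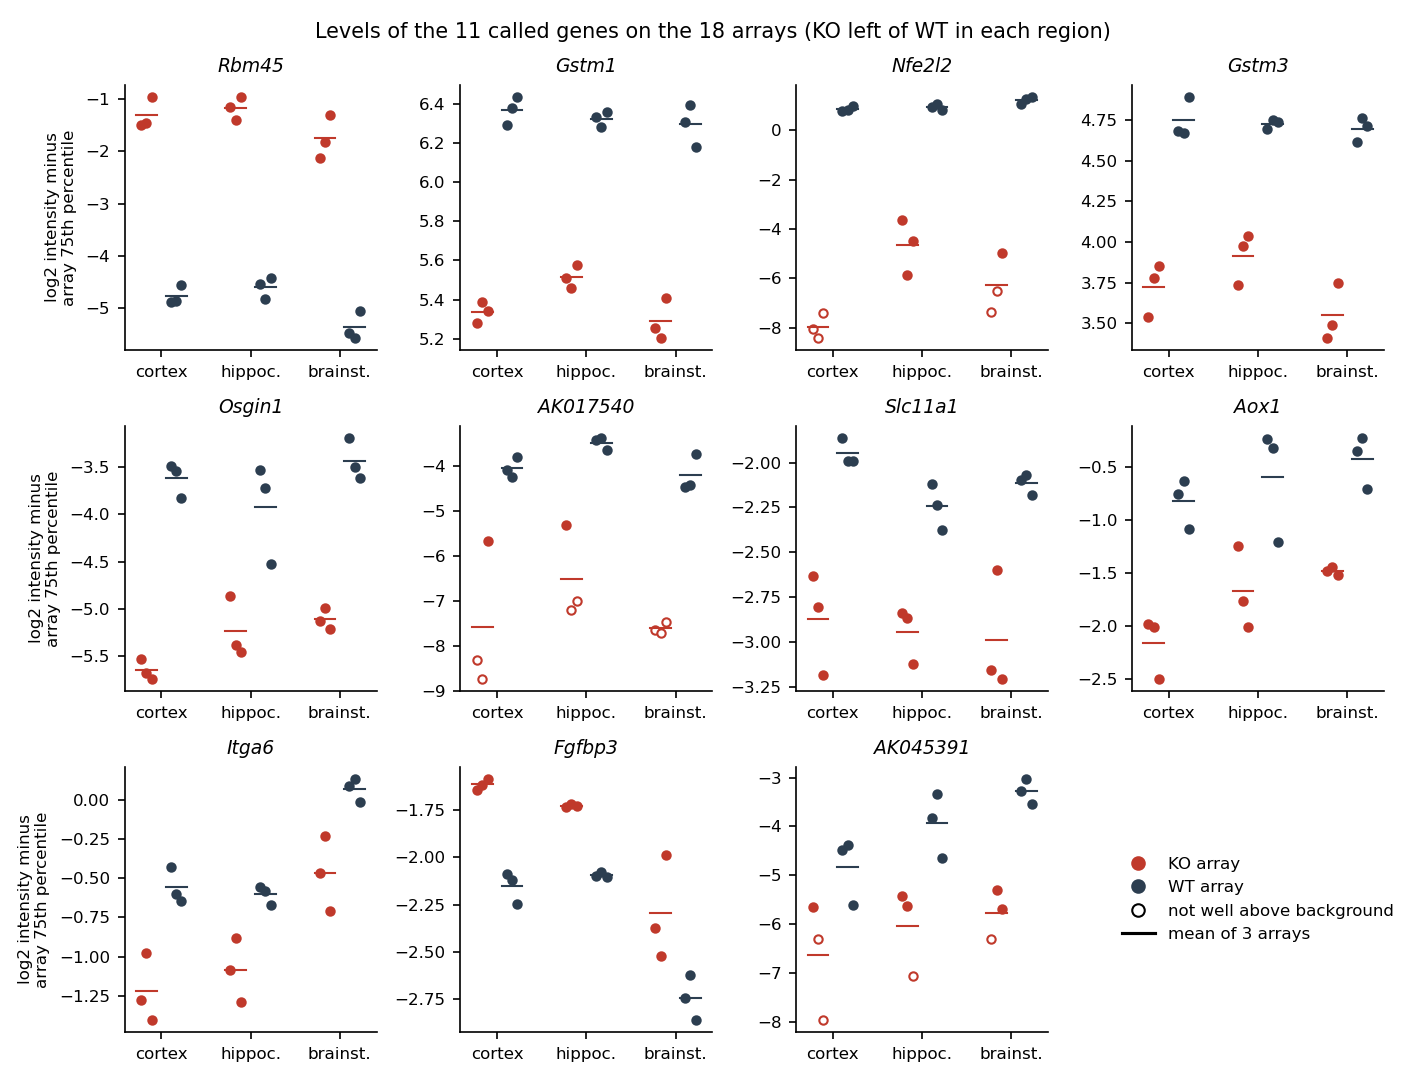
Levels of the 11 called genes on the 18 arrays, as log2 intensity minus the 75th percentile of the array. Each point is 1 array, open points are not well above background, and bars are means of 3 arrays, with KO left of WT in each region. Within every region the KO and WT points are apart for each gene, and Nfe2l2 is open on 5 of the 9 KO arrays.

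The deleted gene was examined first. On the KO arrays Nfe2l2 was at -8.05, -8.42 and -7.40 in cortex, at -3.63, -5.86 and -4.50 in hippocampus, and at -7.36, -6.52 and -4.97 in brainstem. On the WT arrays it was at 0.76, 0.81 and 0.98 in cortex, at 0.93, 1.07 and 0.82 in hippocampus, and at 1.06, 1.25 and 1.36 in brainstem. Every KO level was thus far under every WT level, and the KO levels spread over a much wider range than the WT levels. The probe was well above background on 4 of 9 KO arrays and on 9 of 9 WT arrays. The 4 were 3 from hippocampus and 1 from brainstem, with 0 from cortex. With a floor on dim signals, Nfe2l2 was on average 97.2-fold lower in KO over the 3 regions. For this value each KO array was set to the higher of its own signal and the lowest signal well above background on that array. The floored value carries no sampling error, is no lower limit and does not hold for each region. In hippocampus, with all 3 KO arrays above background, the log2 difference was -5.60, a smaller fold. The measured difference over the 3 regions was -7.30 ± 0.44 (SE), and -4.36 with normexp background correction. A second Nfe2l2 probe differed by -6.70 and was above background on the same number of KO arrays.

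Glutathione S-transferases of the mu class conjugate glutathione to electrophiles, and their genes lie side by side. Gstm1 (NM_010358, chromosome 3) had a lowest level of 5.20, a median of 5.39 and a highest level of 5.58 on KO arrays, against 6.18, 6.33 and 6.44 on WT arrays. Gstm3 (NM_010359, chromosome 3) had 3.41, 3.75 and 4.04 on KO arrays, against 4.62, 4.71 and 4.90 on WT arrays. The genotypes did not overlap for either gene even with the 3 regions pooled. Gstm1 fell by 0.95 ± 0.051 (SE), or 1.93-fold (limma adjusted p = 2.33e-08), and a second Gstm1 probe differed by -1.25. Gstm3 fell by 0.997 ± 0.071, or 1.996-fold (adjusted p = 9.34e-07). The Gstm1 difference was -1.03 in cortex, -0.81 in hippocampus and -1.01 in brainstem, each with an SE of 0.085, and that of Gstm3 was -1.03, -0.81 and -1.15, each with an SE of 0.12. In RNA of whole tissue, fewer cells of a type and less RNA per cell cannot be told apart.

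The other mu-class members differed by less. Gstm2 had a lowest level of -2.11, a median of -1.59 and a highest level of -1.40 on KO arrays, against -1.95, -1.20 and -0.84 on WT arrays, so that the genotypes overlapped. Its difference of -0.37 ± 0.094 was not called (limma adjusted p = 0.358), but it was called with region and number as a replicate block (-0.37 ± 0.048, adjusted p = 0.0226, lower in 9 of 9 pairs). Gstm4 was at -0.10, and Gstm6, Gstm7 and Gstm5, named to complete the class, were at -0.21, -0.26 and 0.06. Coding sequences of this class are close to each other, so cross-hybridization between members is possible and the split of the signal among them is uncertain.

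Osgin1 encodes a growth inhibitor induced by oxidative stress. On KO arrays Osgin1 (NM_027950, chromosome 8) had a lowest level of -5.74, a median of -5.38 and a highest level of -4.86, against -4.53, -3.55 and -3.19 on WT arrays. All 9 KO arrays were lower than all 9 WT arrays, and the probe was dim but above background on all 18. Osgin1 fell by 1.66 ± 0.14, or 3.17-fold (limma adjusted p = 8.14e-06), with differences of -2.02, -1.30 and -1.67 in cortex, hippocampus and brainstem. With normexp, whose offset of 50 by construction narrows differences of dim probes, the difference was -0.67 and still called (adjusted p = 5.70e-06). A second Osgin1 probe, above background on 6 of 9 KO and 9 of 9 WT arrays, differed by -0.49.

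Aox1 encodes aldehyde oxidase, a molybdenum flavoenzyme that oxidizes aldehydes and nitrogen heterocycles. On KO arrays Aox1 (NM_009676, chromosome 1) had a lowest level of -2.51, a median of -1.77 and a highest level of -1.25, against -1.21, -0.63 and -0.22 on WT arrays. The highest KO array and the lowest WT array were both hippocampal and almost met, so the separation was narrower than for the transferases. Aox1 fell by 1.16 ± 0.14, or 2.24-fold (limma adjusted p = 0.000853), with differences of -1.35, -1.09 and -1.06 in cortex, hippocampus and brainstem. Without the cortex arrays its adjusted p was 0.188 and without the brainstem arrays 0.133.

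Slc11a1 encodes a transporter that moves divalent metals out of the phagosomes of macrophages. On KO arrays Slc11a1 (NM_013612, chromosome 1) had a lowest level of -3.21, a median of -2.87 and a highest level of -2.60, against -2.38, -2.10 and -1.86 on WT arrays. The genotypes did not overlap with the regions pooled. Slc11a1 fell by 0.83 ± 0.091, or 1.78-fold (limma adjusted p = 0.000250), by 0.92, 0.70 and 0.87 in cortex, hippocampus and brainstem, and by 0.55 with normexp. Of the 17 tested microglia and macrophage markers, 14 had a positive and 3 a negative difference, with a median of 0.065, and 0 were called. The mean level of these markers ranged from 0.087 to 0.75 on KO arrays and from 0.13 to 0.74 on WT arrays.

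Itga6 encodes the integrin alpha6 subunit, part of laminin receptors. On KO arrays Itga6 (NM_008397, chromosome 2) had a lowest level of -1.41, a median of -0.97 and a highest level of -0.23, against -0.67, -0.55 and 0.14 on WT arrays. Pooled over regions the genotypes overlapped, since both were higher in brainstem, but within each region they did not. Itga6 fell by 0.56 ± 0.077, or 1.48-fold (limma adjusted p = 0.00425). It was not called when cortex, hippocampus or brainstem was left out (adjusted p = 0.308, 0.170 and 0.163).

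AK017540 and AK045391 are cDNA identifiers to which the tables used here give no gene. AK017540 had a lowest level of -8.75, a median of -7.48 and a highest level of -5.30 on KO arrays, against -4.46, -3.79 and -3.36 on WT arrays. It was above background on 2 of 9 KO and 9 of 9 WT arrays. The measured difference of AK017540 over the regions was -3.33 ± 0.34 (limma adjusted p = 0.000128). With the floor on dim signals used for Nfe2l2, it was on average 4.98-fold lower in KO. AK045391 had -7.98, -5.69 and -5.31 on KO arrays, against -5.60, -3.83 and -3.02 on WT arrays. It was above background on 5 of 9 KO and 9 of 9 WT arrays. The measured difference of AK045391 was -2.14 ± 0.32 (adjusted p = 0.00848), and with the floor it was on average 3.55-fold lower. The floored values of both transcripts carry no sampling error and are no lower limits. With normexp the differences were -0.81 and -0.65. AK017540 was not called without the brainstem arrays (adjusted p = 0.0790), nor was AK045391 without the hippocampus (0.241) or brainstem arrays (0.912).

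Rbm45, which encodes an RNA-binding protein, was the gene with the smallest p. On KO arrays Rbm45 (NM_153405, chromosome 2) had a lowest level of -2.12, a median of -1.40 and a highest level of -0.96, against -5.57, -4.86 and -4.42 on WT arrays. Every KO array was above every WT array by more than the whole range within either genotype. Rbm45 rose by 3.497 ± 0.12, or 11.3-fold (limma adjusted p = 2.57e-11), with differences of 3.46, 3.43 and 3.61 in cortex, hippocampus and brainstem, and by 1.89 with normexp.

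Rbm45 and Itga6 lie on the chromosome that carries Nfe2l2. In the order of the RefSeq table, Rbm45 is the 7th protein-coding gene after Nfe2l2 and Itga6 the 30th before it. Of the 40 genes with a symbol next to Nfe2l2, 20 on each side, 11 were tested and 1 was called, Rbm45. The nearest protein-coding gene on that side, Agps, an enzyme of ether lipid synthesis, had a difference of 0.24 ± 0.054 (limma adjusted p = 0.285), and the other 9 lay between -0.079 and 0.26. Hnrnpa3, the nearest on the opposite side, was at -0.028. Whether KO and WT mice differ in the DNA around Nfe2l2 was not tested.

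Fgfbp3 encodes a secreted protein that binds fibroblast growth factors and heparin. On KO arrays Fgfbp3 (NM_028263, chromosome 19) had a lowest level of -2.52, a median of -1.73 and a highest level of -1.58, against -2.86, -2.12 and -2.08 on WT arrays. Brainstem was lower than the other regions in both genotypes, and within each region the KO arrays were above the WT arrays. Fgfbp3 rose by 0.45 ± 0.063, or 1.37-fold (limma adjusted p = 0.00490). It was not called with the replicate block (adjusted p = 0.0694), without the cortex arrays (0.872) or without the hippocampus arrays (0.340). A second Fgfbp3 probe, above background on 0 KO arrays and 1 WT array, gave no level.

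**Figure D2:**
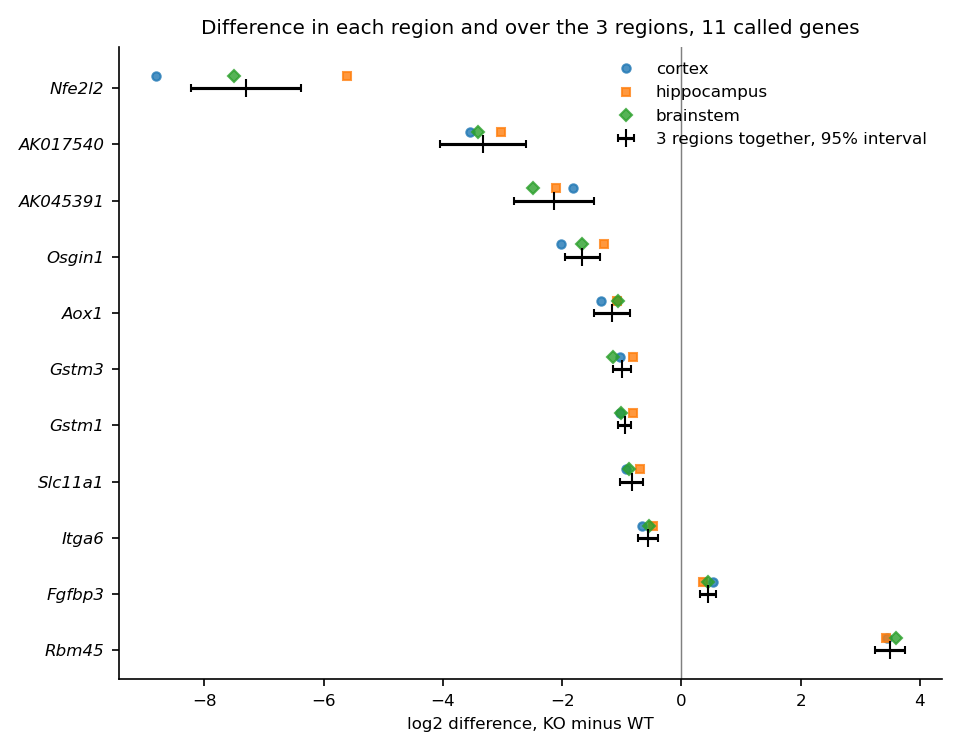
Log2 difference of the 11 called genes, KO minus WT, in cortex, hippocampus and brainstem (coloured points) and over the 3 regions together (black, with the 95% confidence interval of the limma fit). The regional points of each gene lie on 1 side of 0. Those of Nfe2l2 are the most spread, from -8.81 in cortex to -5.60 in hippocampus.

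Whether the differences themselves differed between regions was tested with the interaction of region and genotype. No gene was called (limma, 0 of 22671, or 0%, smallest adjusted p = 0.44), and 171 genes (0.754%) had an unadjusted p under 0.05. That is far less than the fraction of 0.05 expected without any interaction, so the test was conservative here. With region and number as a replicate block 492 of 22671 genes had an unadjusted p under 0.05, again less than that fraction, and 0 were called. The absence of calls does not show that the differences were equal in the 3 regions. Among the 11 genes, Nfe2l2 alone had an unadjusted interaction p under 0.05 (0.00288 from limma, adjusted p = 1), and its KO values were partly below background. With quantile normalization 1 gene was called, the transcript AK012417. Each of the 6 combinations of region and slide held KO and WT arrays. All 11 genes kept their direction in 6 of 6. This follows from the lack of overlap within each region and is no separate check. The differences ranged over these combinations from 3.38 to 3.74 for Rbm45, from -1.13 to -0.77 for Gstm1, from -1.24 to -0.74 for Gstm3 and from 0.24 to 0.87 for Fgfbp3.

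Over all 22671 genes, the differences in cortex and brainstem had a Pearson r of 0.38, those in cortex and hippocampus 0.33, and those in hippocampus and brainstem 0.22. Among the 18974 genes above background on all arrays, the values were 0.56, 0.42 and 0.32 in the same order. Without the called genes they were 0.54, 0.40 and 0.29. These correlations are across genes, which are not independent replicates, and the mice of the 3 regions carry the same numbers. A difference had the same sign in all 3 regions in 10866 genes, or 47.9%.

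Region and number as a replicate block, in which each KO array is paired with the WT array of its region and number, gave 14 called genes, 2 higher and 12 lower, of which 10 were among the 11. The transcript AK084997 was called only with the block, with a difference of 1.31 (adjusted p = 0.00137 with it, 0.119 without), higher in 9 of 9 pairs. AF208109 (-0.58, adjusted p = 0.0206 with the block, 0.101 without) and Sds, a serine dehydratase (-0.52, 0.0466 and 0.284), were lower in 9 of 9 pairs. Sds was above background on only 3 of 9 KO and 5 of 9 WT arrays. With normexp beside the block Sds was at -0.12 and not called (adjusted p = 0.211), and AF208109 was at -0.27 and called (0.0155).

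Promoters of the called genes were searched for the core of the antioxidant response element, since NRF2 binds there. The letters TGACNNNGC were looked for on both strands from 250 bases before to 50 after the start of the gene, as was the looser core TGANNNNGC, which includes every match of the first. Of the 9 lower genes, 6 had a promoter in the RefSeq table and 1 of these, Nfe2l2 itself, held TGACNNNGC, as did 16.7% of the tested genes with a promoter and 12.4% of all promoters of this length. The looser core was in 4 of the 6, in 47.5% of the tested genes with a promoter and in 41.3% of all promoters. Of the 2 higher genes, 0 held TGACNNNGC and 1, Rbm45, held the looser core. In the list of NRF2 targets described further on, 11 of 35 genes with a promoter (31.4%) held TGACNNNGC and 24 (68.6%) the looser core. Such a match is a description of the letters and not a binding site. The 250 bases before the start of the 4 lower genes with a match are given 5′ to 3′ on the strand of the gene, in the RefSeq build GRCm38.p6, to show where the core lies. Nfe2l2 is at chr2:75704664-75704913 (minus strand), Gstm3 at chr3:107969175-107969424 (minus), Osgin1 at chr8:119436897-119437146 (plus) and Slc11a1 at chr1:74374953-74375202 (plus). Capitals mark TGANNNNGC, which in Osgin1 lies on the opposite strand and in Nfe2l2 also reads TGACNNNGC.
Nfe2l2: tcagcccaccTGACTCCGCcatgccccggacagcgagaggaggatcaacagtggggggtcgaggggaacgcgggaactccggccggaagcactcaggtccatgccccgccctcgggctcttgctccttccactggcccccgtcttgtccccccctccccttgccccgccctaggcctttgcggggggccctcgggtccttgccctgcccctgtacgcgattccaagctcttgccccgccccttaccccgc
Gstm3: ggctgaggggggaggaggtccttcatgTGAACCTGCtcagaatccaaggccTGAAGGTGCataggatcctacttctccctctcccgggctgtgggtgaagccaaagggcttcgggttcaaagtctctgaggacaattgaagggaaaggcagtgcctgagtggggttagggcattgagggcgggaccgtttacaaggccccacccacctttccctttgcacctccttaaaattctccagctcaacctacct
Osgin1: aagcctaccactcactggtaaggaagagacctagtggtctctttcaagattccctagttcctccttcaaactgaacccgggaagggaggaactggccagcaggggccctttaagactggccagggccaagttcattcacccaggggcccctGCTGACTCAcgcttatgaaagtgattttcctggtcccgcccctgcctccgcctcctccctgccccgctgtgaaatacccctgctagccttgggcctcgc
Slc11a1: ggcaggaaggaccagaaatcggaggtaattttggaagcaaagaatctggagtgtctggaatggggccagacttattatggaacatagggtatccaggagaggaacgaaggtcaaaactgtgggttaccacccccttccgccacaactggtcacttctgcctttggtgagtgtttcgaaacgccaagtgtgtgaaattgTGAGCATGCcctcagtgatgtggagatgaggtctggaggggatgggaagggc

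Genes that partner, restrain or resemble NRF2 were described as a list of 19 regulators, of which 18 were tested and 1, Nfe2l2, was called. Their median difference was -0.034, against 0.0036 over all genes tested, with 7 positive and 11 negative. Keap1 had a lowest level of 2.48, a median of 2.90 and a highest level of 3.15 on KO arrays, against 2.54, 2.94 and 3.19 on WT arrays. The genotypes overlapped almost entirely and the difference was -0.0098, with a 95% interval from -0.21 to 0.19. Its ligase partners Cul3 (0.0044) and Rbx1 (0.16), the ligase adaptor Btrc (-0.27) and the kinase Gsk3b (-0.11) were not called. Nor were the related factors Nfe2l1 (0.15) and Nfe2l3 (0.0081), the small MAF genes Mafg (-0.16), Mafk (-0.13) and Maff (-0.093), or the repressor Bach1 (-0.059). Nfe2, the erythroid relative of NRF2, was above background on 0 of 9 KO and 4 of 9 WT arrays and was not called (limma adjusted p = 0.204).

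Of 48 genes described elsewhere as NRF2 targets, 46 were on the array and 42 were tested. Of these, 4 fell, Gstm1, Gstm3, Osgin1 and Aox1, and 0 rose. Over all genes tested 0.0397% fell and 0.00882% rose, which also stands beside the counts of the other lists. At an unadjusted limma p under 0.05 there were 9 of the 42, 9 lower and 0 higher. Over all genes tested this held for 8.37%, with 1131 higher and 767 lower. The list median was -0.048, with 16 positive and 26 negative differences, against 51.1% positive over all genes. For 35 of the 42 the 95% interval lay within 1.5-fold in either direction, as it did for 87% of all genes. With the replicate block 5 were called, the same 4 and Gstm2.

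**Figure D3:**
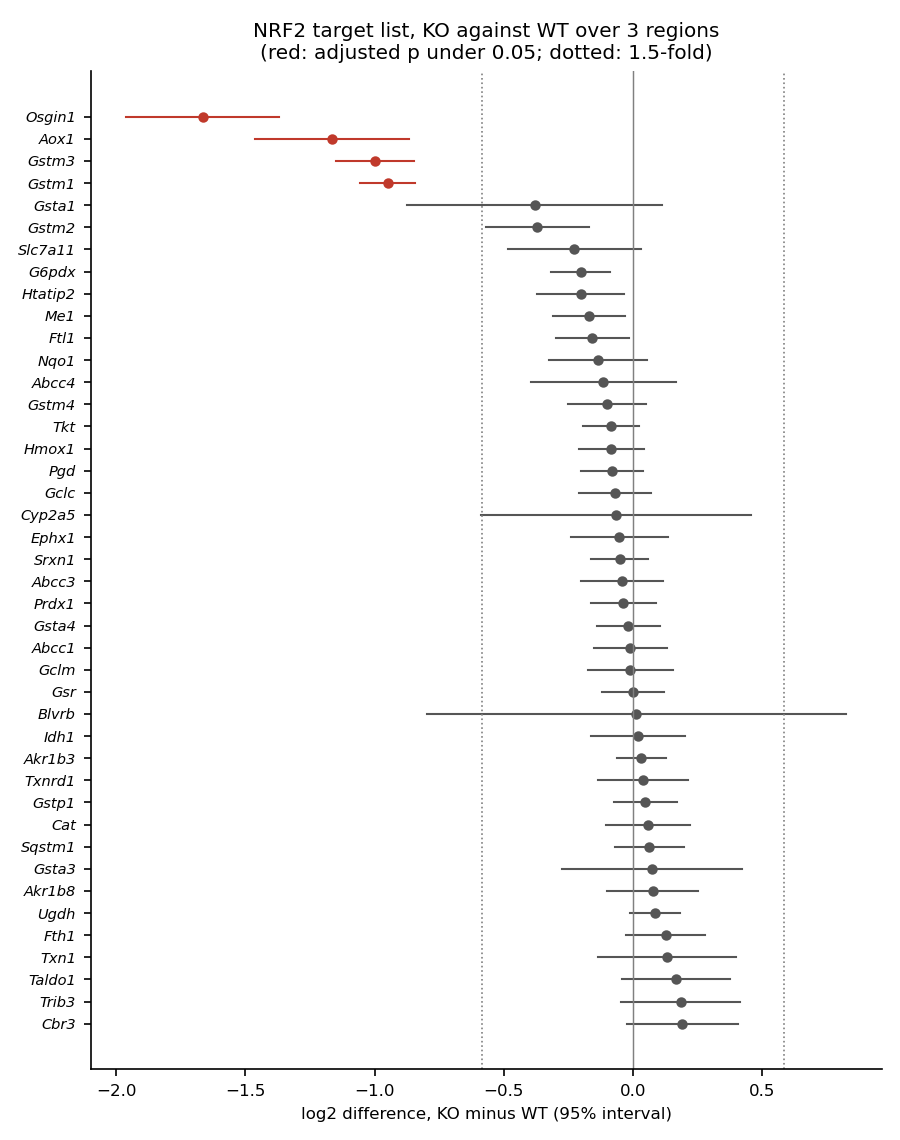
Log2 difference, KO minus WT, of the 42 tested NRF2 target genes over the 3 regions. Points are limma estimates, bars their 95% confidence intervals, red marks an adjusted p under 0.05, and dotted lines mark a 1.5-fold difference. Osgin1, Aox1, Gstm3 and Gstm1 lie apart at -1.66 to -0.95, and the other 38 lie between -0.38 and 0.19.

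The enzymes most used to read out NRF2 activity were not called. Nqo1, a quinone reductase, had a lowest level of -1.98, a median of -1.39 and a highest level of -0.90 on KO arrays, against -1.66, -1.39 and -0.79 on WT arrays. Its difference was -0.14, with a 95% interval from -0.33 to 0.054. Hmox1, which opens the haem ring, had -0.77, -0.46 and -0.11 on KO arrays, against -0.59, -0.50 and 0.18 on WT arrays, a difference of -0.085 (interval from -0.21 to 0.040). The ranges of both genes overlapped for most arrays. Gclc and Gclm, the subunits of the enzyme that starts glutathione synthesis, were at -0.070 (interval from -0.21 to 0.071) and -0.010 (from -0.18 to 0.16). Txnrd1, a thioredoxin reductase, was at 0.039 (from -0.13 to 0.21), Srxn1, which repairs oxidized peroxiredoxins, at -0.052 (from -0.16 to 0.057), and Gsr, glutathione reductase, at 0.0010 (from -0.12 to 0.12). The cystine transporter Slc7a11 was at -0.23 (from -0.48 to 0.029). A gene that is not called is not shown to be unchanged, and these intervals give the sizes the arrays allow.

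Outside the mu class, glutathione transferases were not called. Of 21 tested transferases, 2 fell, Gstm1 and Gstm3, and 0 rose, with 11 positive and 10 negative differences and a median of 0.040. Gstp1 was at 0.047, Gsta4 at -0.018, Gsta3 at 0.074 and Gstt1 at 0.22 (limma adjusted p = 0.555). Of 36 glutathione and thioredoxin antioxidant enzymes, 0 were called, with 18 positive and 18 negative. Txnip, a thioredoxin inhibitor, was at -0.23 and Gpx7 at 0.17 (adjusted p = 0.555 for each).

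Of 17 NADPH-generating enzymes, 0 were called. G6pdx, the entry enzyme of the pentose phosphate pathway, was at -0.20 ± 0.054 (limma adjusted p = 0.401) and the malic enzyme Me1 at -0.17 ± 0.065 (adjusted p = 0.555). Of 28 carbonyl and quinone detoxifying enzymes, 1 fell, Aox1, and the list was even, with 14 positive and 14 negative. Of 28 genes of iron and haem handling, 1 fell, Slc11a1, again with 14 positive and 14 negative. The ferritin chains Ftl1 (-0.16) and Fth1 (0.13) and the transferrin receptor Tfrc (0.16) were not called.

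Housekeeping and stress lists held no called gene. Of 31 proteasome subunits, 15 were positive and 16 negative, with a median of -0.0054. Genes of oxidative phosphorylation were positive in 33 of 40, with a median of 0.071 and 0 at an unadjusted p under 0.05. Heat shock and unfolded protein genes had a median of -0.019 over 22 members, cholesterol synthesis genes 0.012 over 22 and circadian clock genes -0.014 over 18. Immediate early genes, which follow neuronal activity, were negative in 15 of 20, with a median of -0.19, and Ier2 (-0.44 ± 0.16) and Dusp1 (-0.47 ± 0.18) had the smallest p (limma adjusted p = 0.555 for each). The median of this list was -0.23 in cortex, -0.28 in hippocampus and -0.019 in brainstem.

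Inflammatory genes were not called either. Of 15 tested cytokines and chemokines, 9 were positive and 6 negative, with a median of 0.064. Ccl3, which attracts monocytes, had a lowest level of -5.31, a median of -4.22 and a highest level of -3.79 on KO arrays, against -5.80, -5.06 and -4.61 on WT arrays. The ranges overlapped, and its difference of 0.82 ± 0.17 had a limma adjusted p of 0.204. Ccl4, with the same receptor, was at 0.67 ± 0.18 (adjusted p = 0.385). Interferon response and MHC class I genes had a median of 0.047 over 18 members.

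Marker lists of cell types and of neighbouring brain regions held 0 called genes. Neuron markers had a median of -0.057 (4 positive, 12 negative), astrocyte markers 0.054 (10 positive, 4 negative), oligodendrocyte and myelin markers -0.029 (8 positive, 10 negative) and endothelial and mural markers 0.053 (12 positive, 5 negative). The astrocyte glutamate transporter Slc1a3 was at 0.30 ± 0.081 (limma adjusted p = 0.401) and the intermediate filament Vim at 0.21 ± 0.070 (adjusted p = 0.555). Medians were -0.017 for oligodendrocyte precursors, -0.033 for meninges and fibroblasts, -0.048 for ependyma and cilia, -0.0016 for striatum, -0.028 for hypothalamus and pituitary, -0.051 for thalamus and habenula and -0.045 for cerebellum. Mean levels of the astrocyte list ranged from 2.66 to 3.15 on KO arrays and from 2.60 to 3.08 on WT arrays.

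Choroid plexus markers were negative in 15 of 15 tested members, with a median of -0.47 and 0 at an unadjusted p under 0.05. Their mean level per array ran from -4.06 to 0.44 on KO arrays and from -3.31 to 0.98 on WT arrays, a wide spread within both genotypes. The list median was -0.65 in cortex, -1.29 in hippocampus and 0.45 in brainstem, so the regions did not share a direction. Erythrocyte markers were positive in 5 of 5, with a median of 0.36, and Hbb-bt (0.38 ± 0.13) and Alas2 (0.39 ± 0.14) were not called (limma adjusted p = 0.555 for each). Their mean level ranged from 1.98 to 2.37 on KO arrays and from 1.41 to 2.20 on WT arrays. The part of either list in the differences of the 11 genes was not tested.

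**Figure D4:**
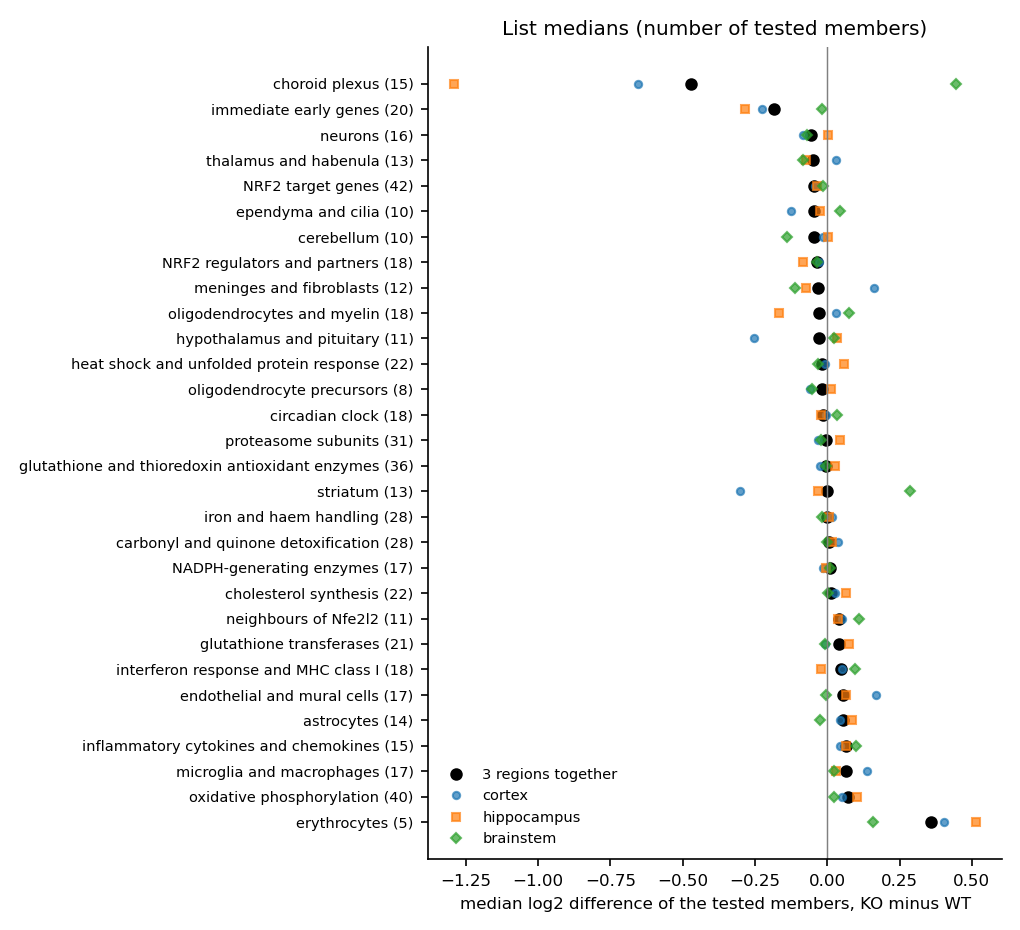
Median log2 difference, KO minus WT, over the tested members of each gene list (number of members in brackets), over the 3 regions together (black) and in each region (coloured). Choroid plexus markers lie at -0.47 together, with -1.29 in hippocampus and 0.45 in brainstem, and erythrocyte markers at 0.36.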

How the data were processed

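RNA of 3 brain regions was measured on 18 Agilent 1-colour arrays. Per the file headers, images were quantified with Agilent Feature Extraction 10.7.3.1, and the deposited intensity of a spot is background-subtracted and detrended within its array, with no normalization between arrays. The headers name the build mm9. The deposited series table was not used.

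Of 43379 non-control spots per array, 30 to 140 marked as non-uniform or population outliers were left out, and spots of 1 probe were averaged. The log2 intensity minus the 75th percentile of the array was used. Probes had to exceed the background clearly on every array of 1 or more of the 6 groups, which left 30066 of 41174 probes. Each gene was read from its brightest probe on average. Symbols came from the RefSeq table of a later build (26690 probes with 1, 14484 with none), and unnamed probes kept the identifier of the file.

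The test was limma 3.58.1 (R 4.3.3; region and genotype as terms, 14 residual and 2.32 prior degrees of freedom), two-sided, with Benjamini-Hochberg adjustment over 22671 genes. Called means an adjusted p under 0.05. The interaction was an F test in a model with 1 mean per group. The text names the called genes, members of the lists of NRF2 regulators and targets, and of each other list the called members and those with the smallest p. Exceptions are stated. The members of the comparison and the 30 lists (639 entries, 590 on the array, 1 list taken from gene order around Nfe2l2) were chosen with earlier results of these data known, so a list's count is no independent evidence.

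Same-numbered KO and WT arrays of a region deviated together in all 9 pairs (correlation of deviations from group means 0.239 to 0.622, median 0.339, against -0.504 to 0.235 for different numbers), so the fit with region and number as a replicate block pairs them. Number and slide cannot be told apart in this, since each pair shares a slide. The sources used here do not say whether the same number in 2 regions is the same mouse. Arrays of the same genotype and number in 2 regions had a median correlation of deviations of 0.223 (14 of 18 over 0.1), against -0.116 for different numbers (7 of 36), and the test over 9 against 9 arrays takes them as independent. Where such arrays do deviate together, the standard errors of that test may be too small and its p-values too low. Deviations from group means cancel within a group. Positive values for the same number therefore lower those for different numbers by construction, and the latter are no separate evidence of pairing. For normexp, background correction used the median signal of a spot, since the files used hold no mean signal column. Alternatives were other scalings, filters, probe rules, blocks and models, and leaving out arrays or regions.

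In data simulated for this comparison, 20%, 68%, 90% and 100% of 50 genes changed by 0.25, 0.5, 1 and 2 log2 units were called among 22671 genes, and 11 of 150 calls were false. The simulated noise was independent between arrays and between genes, whereas the real arrays deviated together by number. These shares therefore may not hold for the real arrays.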

Additional observations from a re-analysis of the deposited data

Results flagged for a closer look

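In 22 groups of 9 arrays, formed by the 11 called genes in either genotype with region means removed, 2 groups held an array far from the others by Dixon's criterion, and chance marks about 1 in 20 groups. Both concern Osgin1 in hippocampus. Hippocampus KO array 1 lay highest among KO arrays, at -4.86. After subtracting the mean of all hippocampal arrays it was at -0.284, with the next KO array at -0.712, a gap of 0.52 of the range. Hippocampus WT array 3 lay lowest among WT arrays, at -4.53. After the same subtraction it was at 0.0537, with the next WT array at 0.653 and a gap of 0.552 of the range. Both arrays lie toward the other genotype. Both also stand apart in the mean level of choroid plexus markers. It was 0.44 on hippocampus KO array 1, against -3.17 and -2.61 on the other hippocampal KO arrays. On hippocampus WT array 3 it was -3.31, against 0.98 and 0.44 on the other hippocampal WT arrays. Whether this bears on Osgin1 was not tested. Leaving out any 1 array gave Osgin1 differences of -1.78 to -1.62, with an adjusted p of at most 4.77e-05 in limma.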

How the results depend on the processing

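The 11 genes were all called again with normexp and quantile normalization, quantile normalization, median scaling, the 75th percentile over detected probes, no filter on dim probes, outlier spots kept, the mean of all probes of a gene, trend and robust moderation, a group means model and a slide block, with 11 to 13 genes in all. No difference reversed. Of 401 values of single called genes under an alternative, 380 kept their side of the threshold and 21 lost the call. Of the 401, 198 came from fits that left out 1 array and all 198 kept it. The 21 losses were thus all in the remaining settings, which differ more from the main fit. With probes above background on all 18 arrays 9 genes were called, 8 of them shared. Leaving out 1 array gave 11 to 15 called genes, always with the 11 among them, and without hippocampus WT array 3 there were 15, with 4 higher in place of 2. Nfe2l2 ranged from -7.57 to -7.13 over these. Without a region 8 (cortex), 8 (hippocampus) and 7 (brainstem) genes were called. With the replicate block 14 were called, and beside Fgfbp3, which was lost, it changed no other call of the 11. It gave 24 with normexp and 22 on probes above background on all 18 arrays, settings chosen after seeing the data, as was the block for lists and for the interaction. With mouse number as a random block 9 were called, without Fgfbp3 and AK045391 (adjusted p = 0.0593 for each). The mean per mouse number over the regions, 3 against 3, gave 3 called genes, Rbm45, Nfe2l2 and Gstm1, with fewer samples in the fit. Standard errors were also larger for most of the 11 genes, such as Aox1 (0.2 against 0.14) and Itga6 (0.12 against 0.077). They were smaller for Nfe2l2 (0.31 against 0.44) and AK017540 (0.3 against 0.34). The interaction gave 1 gene with quantile normalization and 0 with normexp, no filter, trend and robust moderation or the block. The looser promoter core was in 4 lower genes in place of 1. Intervals within 1.5-fold held for 87% of genes and for 98.5% with normexp. The number of arrays limits precision: the median interval reached 0.202 log2 units to either side, and differences of dim probes depend on the background correction.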

Other observations

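Among the 40 genes next in order of p, none of them called, 25 were higher and 15 lower in KO and 40 had the same sign in all 3 regions. They were chosen by their values, so they are described without a test. The genes named here are those with a symbol that come first in order of p in each direction. They stand for no group of genes. Transcripts without a symbol were left out. On the higher side stood Ccl3 (0.82 ± 0.17, limma adjusted p = 0.204), the endothelin receptor Ednrb (0.27 ± 0.057, 0.246) and the transcription factor Sox2 (0.21 ± 0.047, 0.285). Cyp4f14 (0.26 ± 0.059, 0.285), Agps (0.24 ± 0.054, 0.285) and the glycine cleavage enzyme Gldc (0.40 ± 0.091, 0.285) came next. On the lower side stood Hspb8, a small heat shock protein (-0.28 ± 0.058, 0.204), and Nfe2 (-1.48 ± 0.31, 0.204), which was mostly below background. Slc5a11, a myo-inositol transporter (-0.86 ± 0.19, 0.246), Pir, a nuclear iron-binding protein (-0.31 ± 0.067, 0.255), and Tbxas1, thromboxane synthase (-0.29 ± 0.062, 0.259), came next.

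The transcript AK046329, which has no symbol in the table used, came closest to the threshold, at 1.07 ± 0.19 (limma adjusted p = 0.0637), with 1.20, 1.03 and 0.97 in cortex, hippocampus and brainstem. Of the 42 genes without overlap between KO and WT in any region, 25 were higher and 17 lower in KO, and 31 were not called.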
